A study of Mus musculus with 3 samples.

Results

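The genes described here are 40 genes that copy DNA in S phase, followed in spleen B cells of 3 kinds of mice: WT, 3′RR-*BCL2* mice and Igκ-*BCL2* mice. They were listed by symbol, with earlier results of these data known, and are 40 of the 32285 genes counted in each library. Each symbol had a single row, and all 40 genes had UMIs in all 3 libraries. Mice were injected once, intraperitoneally, with sheep red blood cells (SRBCs) and splenic B cells were taken at day 10 for droplet-based single-cell 3′ RNA sequencing, in which unique molecular identifiers (UMIs) count captured RNA molecules. There was 1 library per genotype, so no test between genotypes was possible. All intervals are exact at 95% and cover counting error only. Where 3 values follow each other without a name, they belong to WT, then 3′RR-*BCL2*, then Igκ-*BCL2*.

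In 3′RR-*BCL2* mice, a randomly inserted transgene placed human *BCL2*, with both of its promoters, under core enhancers of the immunoglobulin heavy chain 3′ regulatory region. In Igκ-*BCL2* mice, a human *BCL2* cassette replaced the Jκ segments upstream of a κ enhancer. WT mice carried neither. Both models were on a mixed B6/129 background. The ages of the mice, and how many were used per library, were not given in the sources used here. Human *BCL2* was not among the counted mouse genes, so its level was not measured. The labels call the WT library sorted B cells and both *BCL2* libraries whole tissue cells, while the methods of the study describe all 3 as B cells sorted magnetically by negative selection. *Xist* was found at 1713 UMIs per 1000000 in 3′RR-*BCL2* and at 0.157 in WT and 0.175 in Igκ-*BCL2*, so that sex and genotype cannot be told apart for 3′RR-*BCL2*. After filtering, 9754, 6396 and 6108 cells were used, with medians of 5073, 5362.5 and 4887.5 UMIs. Pairs of libraries shared 15 to 24 barcodes. Markers of other cells were rare, with 2 or more T cell markers in at most 2 cells and 2 or more erythroid markers in at most 4 cells of a library, and with none for macrophages, neutrophils or B cell progenitors. Cells with 2 or more UMIs of *Cd3* or *C1q* genes had been removed before this count. These genes are among the T cell and macrophage markers, so the counts of those cells do not measure how pure the libraries were.

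A cell prepares to copy its genome by loading the MCM helicase onto origins, and starts to copy when CDC45 and the GINS complex complete the helicase. Primase then starts new strands behind it, and polymerases held on DNA by the PCNA clamp extend them. Flap removal and ligation join the lagging strand. Many of these genes are transcribed at the entry to S phase under E2F factors. In the germinal center (GC), B cells divide rapidly in the dark zone and are selected in the light zone, whereas resting follicular B cells are out of cycle.

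A sequence that the choice of genes did not use was found in the promoters of some of them. RefSeq promoters (GRCm38.p6, 250 bases before to 50 after the start) were matched by symbol for 33 of the 40 genes, and not for *Ccne2*, *Mcm4*, *Gins1*, *Gins2*, *Pole*, *Rfc2* and *Tipin*. An E2F-type motif, searched as TTTCCCGC, TTTCGCGC, TTTGCCGC or TTTGGCGC on both strands, was in 14 of the 33 (42.4%), against 704 of all 27025 genes (2.60%). The CCAAT box, a general promoter element, was in 19 of 33 (57.6%) against 41.1% of all genes. The 250 bases before the start are shown for 4 of the 14 genes, helicase, licensing and chromatin genes that are higher in GC-like cells below, with the E2F-type matches in capitals. Where matches overlap, the capitals run over both. In GRCm38.p6 they lie at chr8:75109259-75109508 on the plus strand (*Mcm5*), chr1:128359706-128359955 on the minus strand (*Mcm6*), chr11:98907901-98908150 on the plus strand (*Cdc6*) and chr17:56304063-56304312 on the plus strand (*Uhrf1*).

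Mcm5: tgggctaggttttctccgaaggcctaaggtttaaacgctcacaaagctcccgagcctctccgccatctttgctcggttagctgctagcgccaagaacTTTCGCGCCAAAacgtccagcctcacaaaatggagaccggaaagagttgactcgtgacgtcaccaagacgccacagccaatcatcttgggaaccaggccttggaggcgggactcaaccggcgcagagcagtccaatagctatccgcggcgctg
Mcm6: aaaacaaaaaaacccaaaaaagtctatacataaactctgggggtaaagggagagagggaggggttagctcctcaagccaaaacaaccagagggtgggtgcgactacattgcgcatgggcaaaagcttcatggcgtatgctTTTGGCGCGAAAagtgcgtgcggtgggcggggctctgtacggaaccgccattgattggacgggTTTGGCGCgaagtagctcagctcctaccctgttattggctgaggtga
Cdc6: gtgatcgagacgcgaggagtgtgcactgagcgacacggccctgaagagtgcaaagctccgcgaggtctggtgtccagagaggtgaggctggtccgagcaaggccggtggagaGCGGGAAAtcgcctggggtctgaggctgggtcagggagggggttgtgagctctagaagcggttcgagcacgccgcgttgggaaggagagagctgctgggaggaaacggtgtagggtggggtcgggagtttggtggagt
Uhrf1: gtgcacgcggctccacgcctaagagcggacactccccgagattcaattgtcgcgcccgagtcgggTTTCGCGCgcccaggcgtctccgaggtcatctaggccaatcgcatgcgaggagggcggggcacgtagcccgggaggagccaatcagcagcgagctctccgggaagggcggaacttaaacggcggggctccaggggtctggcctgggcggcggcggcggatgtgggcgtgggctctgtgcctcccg

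*Mcm5* held 2 overlapping matches, *Mcm6* held 3, and *Cdc6* and *Uhrf1* held 1 each, on the strand shown or on its complement. *Uhrf1* had 2 promoters, and the 250 bases of the other, at chr17:56303087-56303336, held no match. The median log2 ratio of GC-like over resting-like cells, described below, was 3.31, 2.20 and 1.27 for genes with a match and 2.92, 1.72 and 1.21 for genes whose promoters held none, and *Cdt1*, one of the 14, was among the least changed of the 40.

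DNA replication genes were then compared across B cell stages. Cells were thinned to 2000 UMIs and assigned by fixed marker lists, and a cell was called GC-like with at least 3 of 12 GC genes (such as *Mef2b*, *S1pr2* and *Bcl6*), none of which is a replication gene. This gave 54, 457 and 208 GC-like cells, and 7204, 4039 and 4131 resting follicular-like cells. *Ighd*, which GC B cells lose and which was not used for the GC class, was found in 14.8%, 16.4% and 19.7% of GC-like cells and in 92.3%, 89.4% and 89.2% of resting-like cells. Just inside the limit, 22, 200 and 94 cells held exactly 3 markers, and just outside it 70, 308 and 188 held 2.

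The summed level of the 40 genes was highest in GC-like cells in each library. It reached 4622 UMIs per 1000000 UMIs of the class in WT (4435 to 4814). The 3′RR-*BCL2* library had 2615 (2563 to 2669) and the Igκ-*BCL2* library 1802 (1736 to 1869). Resting-like cells held 806, 853 and 895 UMIs per 1000000, so the resting levels lay close together while the GC levels did not. The log2 ratio of GC-like over resting-like cells was 2.52 (2.46 to 2.58), 1.62 (1.58 to 1.65) and 1.01 (0.95 to 1.07). Over 20 further random draws of the thinning, the GC-like level ranged from 3689 to 4899.5 in WT. It ranged from 2471 to 2871 in 3′RR-*BCL2* and from 1639 to 1963 in Igκ-*BCL2*. The log2 ratios ranged from 2.18 to 2.61, from 1.55 to 1.77 and from 0.87 to 1.13. The intervals are narrower than these ranges, as they do not cover the choice of cells.

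Outside the GC, levels of the other marker-defined stages stayed near those of resting cells with few exceptions. Cells of no class, 1885, 1570 and 1445 in number, held 965, 1158 and 1007.5 UMIs per 1000000. Their log2 ratios over resting-like cells were 0.26 (0.23 to 0.29), 0.44 (0.41 to 0.47) and 0.17 (0.14 to 0.21). WT transitional-like cells, immature B cells that have newly reached the spleen, held 1095 UMIs per 1000000, a log2 ratio of 0.44 over resting-like cells (0.36 to 0.52), and MYC-high activated-like cells held 977 (0.28, 0.17 to 0.38). Marginal zone-like cells were lower than resting-like cells in WT, at 746 (-0.11, -0.20 to -0.03), and in 3′RR-*BCL2*, at 638 (-0.42, -0.56 to -0.28). Plasma cell-like cells were low in WT and Igκ-*BCL2*, at 629 and 657 UMIs per 1000000, and higher in 3′RR-*BCL2*, at 1641 (0.94, 0.76 to 1.13). The last value rests on 19 cells. By the rules given further on, none of them was in S phase and 1 was G2/M-like. A median of 1 of the replication genes was found in these cells after thinning, and up to 14 in a single cell. How much of the level came from single cells was not tested.

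**Figure D1:**
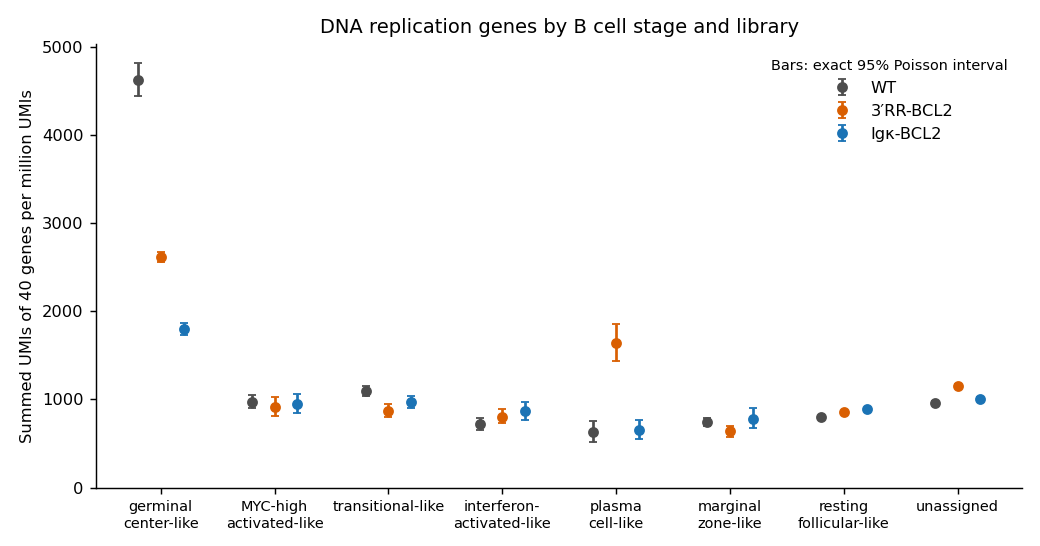
Summed UMIs of the 40 DNA replication genes per 1000000 UMIs (y axis) by marker-defined stage (x axis) in the 3 libraries, with exact 95% Poisson intervals as bars. GC-like cells stand above the other stages in each library, at 4622, 2615 and 1802 from WT to Igκ-*BCL2*. The bars do not cover the choice of cells by the draw of the thinning.

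Most of the 40 genes took part in the difference between GC-like and resting-like cells. Of genes with at least 20 UMIs in either class, 37 of 38, 34 of 40 and 22 of 38 were at least 2-fold higher in GC-like cells. Over all measured genes, 14.1%, 9.56% and 8.89% passed the same limit in these libraries. No member was at least 2-fold lower, against 26.0%, 12.0% and 13.2% of all. The median log2 ratio of the 40 genes was 2.99, 1.90 and 1.19, against -0.10, 0.00 and -0.01 for all genes. *Mcm10* and *Cdc6* had few UMIs, under 20 in both classes of WT and of Igκ-*BCL2*. As 3′ counts depend on how well each RNA is captured, levels are compared below within a gene and not between genes.

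The replicative helicase and its loaders gave the first group. *Mcm6*, a subunit of the MCM2-7 ring, was at 249, 103 and 59.7 UMIs per 1000000 in GC-like cells, and at 22.0, 24.0 and 24.7 in resting-like cells. The 6 ring subunits, *Mcm2* to *Mcm7*, behaved alike, with log2 ratios of 2.50 to 3.50, 1.48 to 2.35 and 0.43 to 1.60. *Cdc45*, which joins the ring when an origin fires, was at 18.0, 14.9 and 6.91 in GC-like cells and at 0.879, 1.45 and 1.01 in resting-like cells. *Mcm10*, needed to activate the helicase, was at 16.0, 13.0 and 1.89 in GC-like cells and at 0.327, 0.256 and 0.138 in resting-like cells, from 8, 47 and 3 UMIs in GC-like cells. *Gins1* and *Gins2*, subunits of the GINS complex, had log2 ratios of 0.70 to 2.86 over the 3 libraries.

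The pair of licensing factors that load the ring onto origins parted. *Cdc6* was at 26.1, 16.1 and 4.40 UMIs per 1000000 in GC-like cells, and at 0.402, 0.855 and 0.460 in resting-like cells. *Cdt1* was at 72.2, 50.1 and 58.4 in GC-like cells and at 54.6, 54.3 and 51.4 in resting-like cells, and its log2 ratio had an interval that held 0 in each library (0.40, -0.12 to 0.88; -0.12, -0.35 to 0.11; and 0.18, -0.14 to 0.49). No difference of *Cdt1* was detectable at this depth, while *Cdc6* was rare in resting-like cells.

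Among the polymerases, *Pola1*, the catalytic subunit that works with primase, had log2 ratios of 3.21, 2.50 and 2.10, and *Pold1*, of the main lagging strand polymerase, 1.26, 0.69 and 0.40. *Pole* (leading strand) had 3.48, 2.20 and 1.71, and *Prim1*, the primase, 3.31, 1.89 and 1.28. *Pold1* was at 104, 73.1 and 59.7 UMIs per 1000000 in GC-like cells and at 43.5, 45.2 and 45.2 in resting-like cells.

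The clamp and its loader held one of the widest gaps. *Pclaf*, a PCNA-binding factor, was at 375 (323 to 433), 214 (199 to 229) and 77.3 (64.2 to 92.2) UMIs per 1000000 in GC-like cells, and at 2.46, 5.0 and 3.45 in resting-like cells. Its log2 ratios, 7.25, 5.42 and 4.48, were the highest of the 40 genes measured in WT and Igκ-*BCL2* cells, and second to *Mcm10* (5.67) in 3′RR-*BCL2* cells. *Pcna*, the clamp itself, was at 323, 259 and 227 in GC-like cells and already at 93.1, 116 and 124 in resting-like cells, with log2 ratios of 1.79, 1.16 and 0.87. The loader subunit *Rfc2* had 1.44, 1.02 and 0.87, *Rfc3* had 1.53, 1.56 and 0.93, *Rfc4* had 2.72, 1.38 and 0.43, and *Rfc5* had 2.23, 1.30 and 1.02.

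*Lig1*, the ligase that joins lagging strand fragments, had log2 ratios of 3.78, 2.29 and 1.38, and *Fen1*, the flap nuclease before it, 1.22, 0.85 and 0.16. Nucleotide supply was among the most GC-bound roles. *Rrm2*, the regulated subunit of ribonucleotide reductase, was at 94.2, 46.5 and 15.7 UMIs per 1000000 in GC-like cells and at 1.86, 2.74 and 1.15 in resting-like cells (log2 ratios 5.66, 4.09 and 3.77). Its partner *Rrm1* was at 18.2, 17.7 and 17.1 in resting-like cells and had ratios of 1.95, 1.56 and 0.90. *Tyms*, which makes dTMP, had 4.81, 3.32 and 3.01, *Dut*, which clears dUTP, 3.13, 1.91 and 1.15, and *Tk1*, which salvages thymidine, 2.62, 1.72 and 0.56.

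*Rpa2*, a subunit of the protein that coats single-stranded DNA, was one of the least changed genes, at 54.1, 26.6 and 26.4 UMIs per 1000000 in GC-like cells and 26.6, 20.5 and 28.1 in resting-like cells. *Tipin*, of the fork protection complex, had log2 ratios of 2.54, 1.42 and 0.82. Of the genes that rebuild chromatin behind the fork, *Uhrf1*, which guides maintenance methylation, was at 120, 59.0 and 28.3 in GC-like cells and 3.62, 3.33 and 1.89 in resting-like cells. *Dnmt1*, the methyltransferase it guides, had ratios of 2.78, 1.83 and 1.07, with resting levels of 32.6, 32.2 and 32.7. *Hells*, a chromatin remodeller, had 3.76, 2.29 and 2.02. The histone chaperone subunits *Chaf1a* and *Chaf1b* had 4.04, 2.83 and 1.67, and 3.15, 1.65 and 1.26. *Slbp*, which binds histone mRNA, was at 313, 266 and 233 in GC-like cells and at 111, 132 and 137 in resting-like cells. The regulators of S phase entry were at low levels throughout. *E2f1* was at 48.1, 23.8 and 9.43 in GC-like cells against 2.36, 2.61 and 1.98 in resting-like cells, and cyclin E genes *Ccne1* and *Ccne2* had log2 ratios of 0.91 to 3.06.

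**Figure D2:**
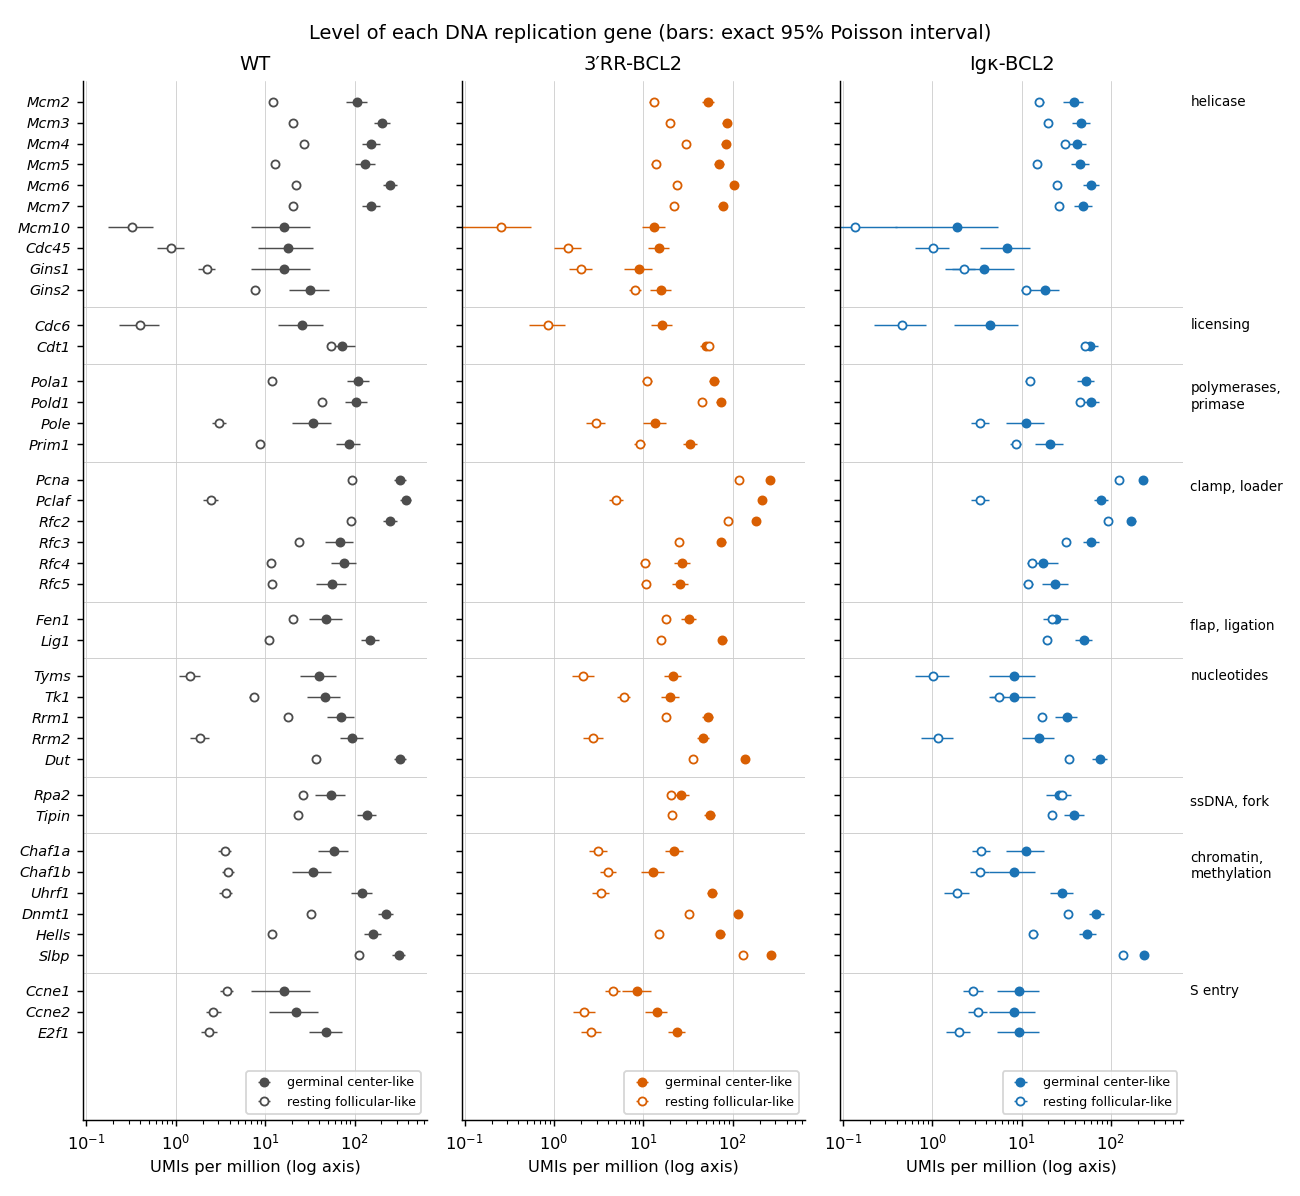
UMIs per 1000000 (x axis, log scale) of each DNA replication gene (y axis, grouped by role) in GC-like cells (filled) and resting follicular-like cells (open) of each library, with exact 95% Poisson intervals. The gap is widest for genes such as *Pclaf*, *Rrm2* and *Uhrf1* and closed for *Cdt1*, and it narrows from WT to Igκ-*BCL2* as the filled points move left.

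Other replication genes, a list of 38 that were not among the 40 (origin recognition, further polymerase and fork subunits), differed less. At least 2-fold higher levels in GC-like cells were found for 26 of 38, 19 of 36 and 16 of 37 measured genes, with medians of 1.40, 1.07 and 0.76. The histone chaperone *Asf1b* was among the highest in each library (4.08, 3.35 and 2.06). The E2F and pocket protein genes were mixed. *Tfdp1*, the partner of E2F factors, had log2 ratios of 3.36, 2.20 and 2.38, while the retinoblastoma gene *Rb1* was lower in GC-like cells in each library (-1.87, -2.29 and -2.08) and so was its relative *Rbl2* (-1.39, -0.52 and -0.73).

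Cells in S phase were then called from the number of the 40 genes with a UMI in a cell thinned to 2000 UMIs. A cell was S-phase-like with at least 6 of the 40 genes and more of these than of 40 mitosis genes, and G2/M-like with at least 6 mitosis genes and no fewer than of replication genes. The limit of 6 was the lowest that under 1% of resting-like cells reached (47 of 15374 cells, 0.306%, while 5 genes were reached by 1.61%). GC-like cells held a median of 6, 2 and 2 of the genes, against 1 in resting-like cells of each library, and up to 21 genes were found in a single cell.

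**Figure D3:**
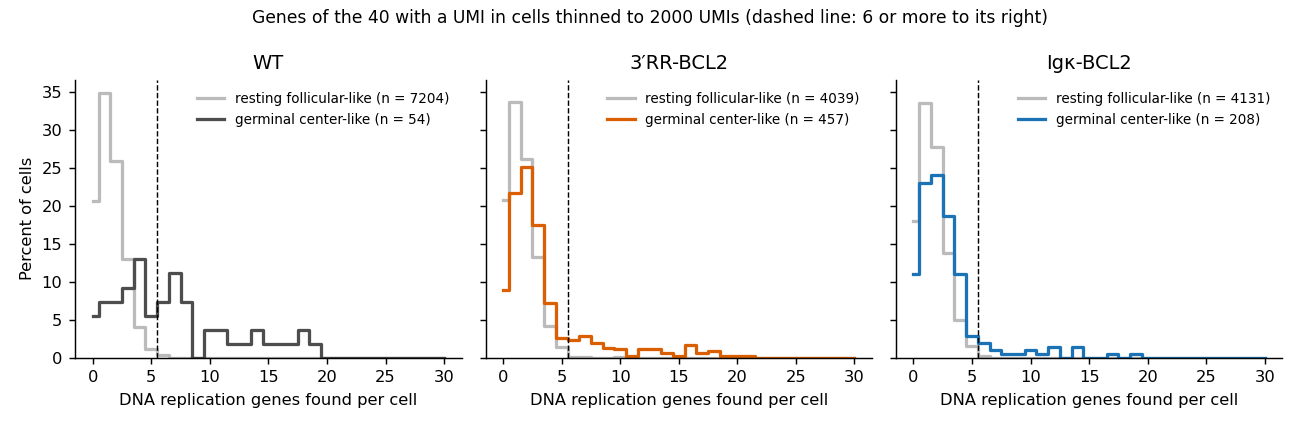
Percent of cells (y axis) by the number of the 40 DNA replication genes found in a cell thinned to 2000 UMIs (x axis), for GC-like cells (colored) and resting follicular-like cells (grey) of each library. Resting-like cells end at the dashed line, from which 6 or more genes are found, but for 24 of 7204, 11 of 4039 and 12 of 4131 cells, while 28 of 54, 77 of 457 and 19 of 208 GC-like cells reached it.

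S-phase-like cells were 24 of 54 GC-like cells in WT (44.4%, 30.9 to 58.6). They were 58 of 457 in 3′RR-*BCL2* mice (12.7%, 9.78 to 16.1), and 16 of 208 in Igκ-*BCL2* mice (7.69%, 4.46 to 12.2). The share in resting-like cells, the background of the call, was 0.333%, 0.223% and 0.290%. The log2 ratio of shares was -1.81 for 3′RR-*BCL2* over WT (-2.52 to -1.06) and -2.53 for Igκ-*BCL2* over WT (-3.54 to -1.56), and the interval between the *BCL2* libraries held 0 (-0.72, -1.62 to 0.10). G2/M-like cells were 13.0%, 8.32% and 2.40% of GC-like cells, with log2 ratios of -0.64 for 3′RR-*BCL2* over WT (-1.82 to 0.77) and -2.43 for Igκ-*BCL2* over WT (-4.43 to -0.56). Igκ over 3′RR it was -1.79 (-3.49 to -0.44). Over 20 further draws of the thinning, the G2/M-like share was 10.9 to 23.4% in WT, with a median of 18.0%. In 3′RR-*BCL2* it was 5.69 to 9.13%, with a median of 7.17%, and in Igκ-*BCL2* the median was 2.72%. The 3′RR-*BCL2* range thus lay below that of WT, although the interval of the draw reported here held 0.

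The S-phase-like share of WT rests on few cells, and moved with the random draw of the thinning. Over 20 further draws the WT class held 51 to 65 cells and 26.7 to 45.8% of them were S-phase-like (median 35.8%), so that the value above is near the top of its range. The other shares were 10.7 to 13.7% and 6.05 to 8.33%, and in 20 of 20 draws WT was highest and Igκ-*BCL2* lowest. With cells thinned to 1000 UMIs the WT class held 25 cells and the share was 16.0% (4.54 to 36.1), an interval that covers the other shares of 11.2% and 5.48%. With 2 GC markers enough for the class the WT share was 23.4%, against 9.41% and 4.55%. GC-like cells had a median of 9506 UMIs in WT and of 7232 and 7249 in the *BCL2* libraries, and the part of this difference in the result was not tested beyond thinning.

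As a share of all B cells the order was another. S-phase-like cells were 85 of 9754 cells in WT (0.871%, 0.697 to 1.08). In 3′RR-*BCL2* mice they were 102 of 6396 (1.59%, 1.30 to 1.93), and in Igκ-*BCL2* mice 36 of 6108 (0.589%, 0.413 to 0.815). The 3′RR-*BCL2* share was thus above that of WT (log2 0.87, 0.44 to 1.30), whose interval with Igκ-*BCL2* held 0 (-0.56, -1.17 to 0.01) and whose order with it turned in 3 of 12 other settings. These shares moved with the number of genes required: with 5 genes they were 1.98%, 3.13% and 2.16%, with 7 genes 0.492%, 1.33% and 0.278%, and with phases from scores 2.02%, 3.39% and 2.52%. GC-like cells themselves were 0.554%, 7.15% and 3.41% of cells. The limits on genes and UMIs, taken from the study, removed 107, 128 and 49 cells in all, 19, 43 and 10 of them GC-like. Most of these GC-like cells were dividing: without the limits the class held 73, 500 and 218 cells, and 15 of 19, 37 of 43 and 6 of 10 added cells were S-phase-like or G2/M-like. The S-phase-like share of GC-like cells then was 42.5%, 14.8% and 8.26%.

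**Figure D4:**
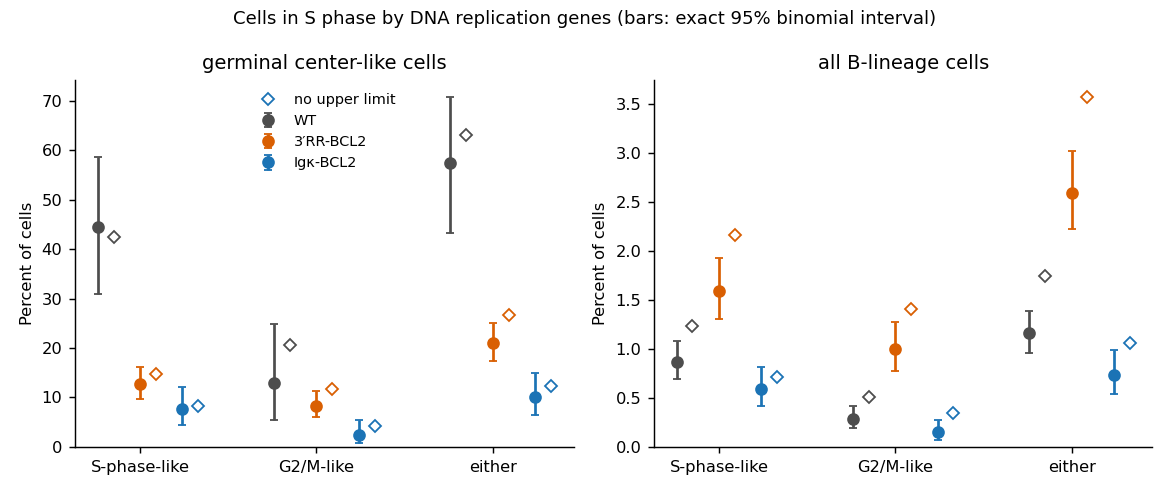
Percent of GC-like cells (left) and of all B-lineage cells (right) that were S-phase-like, G2/M-like or either, with exact 95% binomial intervals as bars and values without the upper limits on genes and UMIs as open diamonds. WT is highest within GC-like cells (S-phase-like 44.4%, 12.7%, 7.69%) and 3′RR-*BCL2* within all cells (0.871%, 1.59% and 0.589%).

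Between libraries, the summed level of the 40 genes was lower in GC-like cells of both *BCL2* models than of WT. It had a log2 ratio of -0.82 for 3′RR-*BCL2* over WT (-0.89 to -0.76) and of -1.36 for Igκ-*BCL2* over WT (-1.44 to -1.28). Between the *BCL2* models, Igκ over 3′RR, it was -0.54 (-0.60 to -0.48). Over the 20 further draws these ranged from -0.83 to -0.47, from -1.44 to -0.99 and from -0.77 to -0.44. The first pair of comparisons shares the WT cells, and the draw reported here is at the low end of both ranges.

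For 3′RR-*BCL2* over WT, 39 of 40 genes were lower and 18 at least 2-fold lower, where 2.94% of all measured genes were. None was at least 2-fold higher (7.03% of all), with a median of -0.97 against -0.01 for all genes. The count of 18 depended on the cells taken, as it was 3 to 18 over the draws and 1 without the upper limits, while 33 to 40 genes were lower in the draws and 40 without the limits. For Igκ-*BCL2* over WT, 32 of 32 measured genes were lower, 24 at least 2-fold (3.82% of all), and none higher by 2-fold (7.74% of all), with a median of -1.63, and 18 to 26 were at least 2-fold lower over the draws. The genes under 20 UMIs in both were *Mcm10*, *Cdc6*, *Gins1*, *Chaf1b*, *Pole*, *Ccne2*, *Cdc45* and *Ccne1*. For Igκ-*BCL2* over 3′RR-*BCL2*, 37 of 40 were lower, 11 of them at least 2-fold (2.6% of all), and none was higher by 2-fold (1.03%). In resting-like cells the summed level was slightly higher in both *BCL2* libraries (0.08, 0.06 to 0.11, and 0.15, 0.12 to 0.18). Over WT, *Pclaf* and *Cdc6* were at least 2-fold higher there in 3′RR-*BCL2* cells (1.19% of all were) and none lower (1.52%), and no gene passed either limit in Igκ-*BCL2* cells (2.97% and 2.06%).

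The lowest genes of 3′RR-*BCL2* over WT were the clamp loader *Rfc4* (27.1 against 76.2 UMIs per 1000000, log2 -1.49, -2.04 to -0.91), *Chaf1b* (-1.42), *Chaf1a* (-1.39), *Prim1* (33.5 against 86.2, -1.36, -1.88 to -0.83) and *Pole* (-1.33). Of these, *Prim1* and *Chaf1b* were at least 2-fold lower in each of the draws, which no other of the 40 genes was. Without the upper limits on genes and UMIs neither was 2-fold lower (-0.78 and -0.74), and *Tk1* (-1.16) was the only gene that was. *Rfc3* was the single gene above WT, at 74.7 against 68.2 (0.13, -0.39 to 0.69), and *Slbp* (-0.23), *Cdc45* (-0.27), *Mcm10* (-0.30) and *Pcna* (-0.32) lay closest to it. By role, the sums were lowest for *Rpa2* and *Tipin* together (-1.21), nucleotide supply (-1.05) and the helicase (-1.04), and least changed for the clamp and its loader (-0.56) and the licensing pair (-0.57).

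For Igκ-*BCL2* over WT the nucleotide supply genes had the lowest sum of the roles. *Rrm2* was at 15.7 against 94.2 UMIs per 1000000 (-2.58, -3.35 to -1.86), *Tk1* at 8.17 against 46.1 (-2.50, -3.60 to -1.46) and *Tyms* at 8.17 against 40.1 (-2.30), and the sum over the role had a log2 ratio of -2.05 (-2.31 to -1.79), while *Rrm1*, of the same role, had -1.13. *Chaf1a* (-2.36) and *E2f1* (-2.35) lay below *Tyms*. *Rfc3* (-0.19), *Cdt1* (-0.30), *Slbp* (-0.43), *Pcna* (-0.51) and *Rfc2* (-0.57) were least changed. Between the *BCL2* models, *Mcm10* (3 against 47 UMIs, -2.79, -5.12 to -1.15), *Cdc6* (-1.87), *Rrm2* (-1.57), *Pclaf* (-1.47) and *Tyms* (-1.38) were lowest in Igκ-*BCL2*. *Cdt1* (0.22), *Gins2* (0.21) and *Ccne1* (0.14) were higher there, with intervals that held 0.

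**Figure D5:**
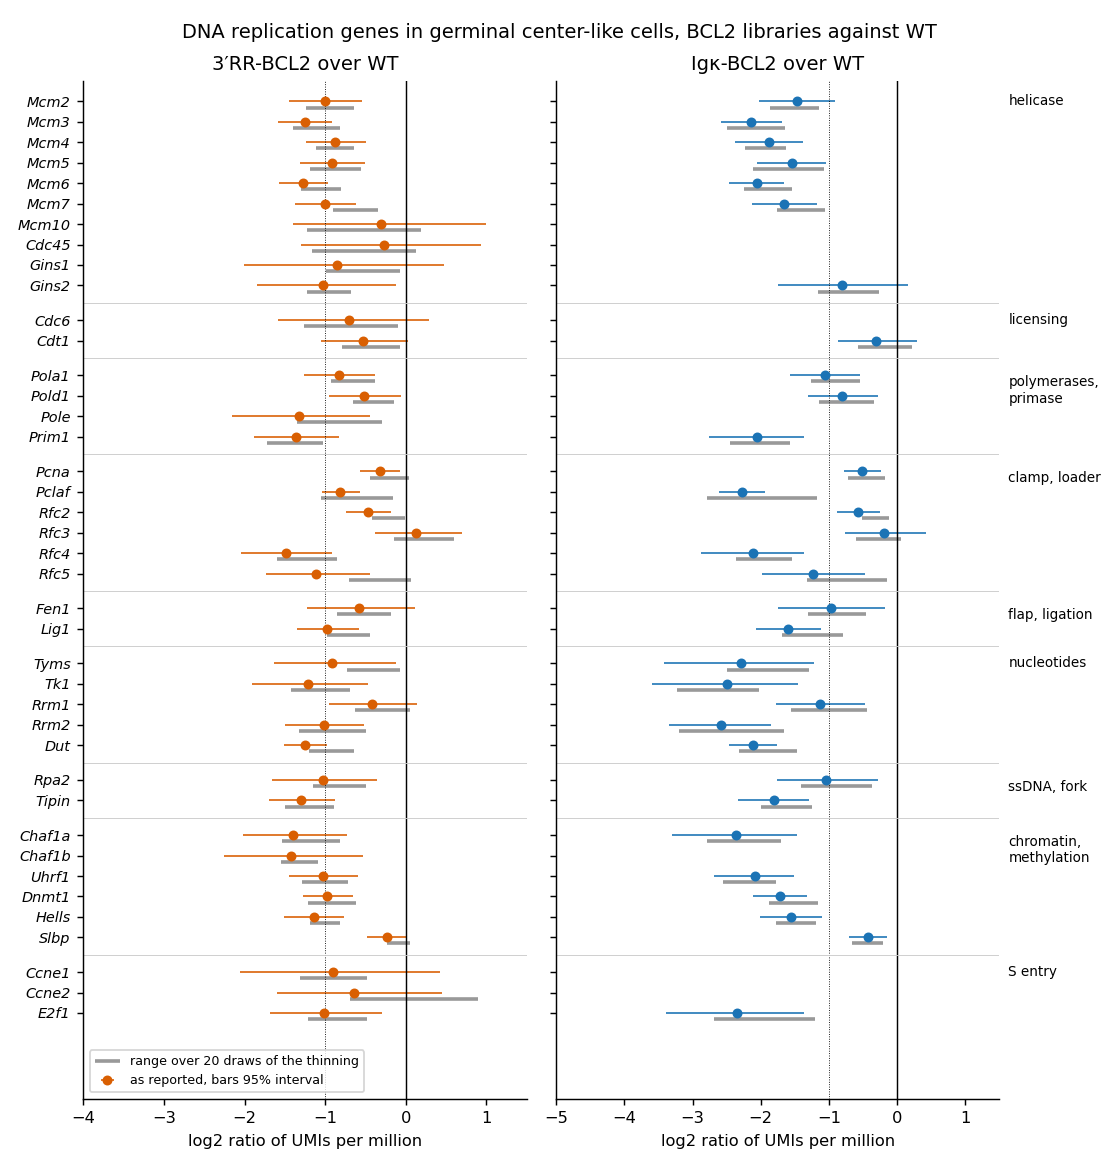
Log2 ratio of UMIs per 1000000 in GC-like cells (x axis) for each DNA replication gene with at least 20 UMIs in either library (y axis, grouped by role), 3′RR-*BCL2* over WT (left) and Igκ-*BCL2* over WT (right), with exact 95% intervals as bars. Grey lines give the range over 20 draws of the thinning, and points lie left of 0 except *Rfc3* in 3′RR-*BCL2* (0.13).

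GC-like cells in neither phase were chosen by holding few of the same 40 genes, so their levels of these genes are a description only. The summed level was 2022, 1212 and 1260 UMIs per 1000000, a log2 ratio of -0.74 (-0.88 to -0.59) between 3′RR-*BCL2* and WT and of -0.68 (-0.83 to -0.53) between Igκ-*BCL2* and WT, and 25 of 27 and 20 of 22 measured genes were lower than in WT, 14 and 8 of them at least 2-fold (5.59% and 3.95% of all). *E2f1*, from few UMIs, was the single gene at least 2-fold higher, in 3′RR-*BCL2* (1.09, -1.52 to 6.45), where 11.5% of all genes were, against none in Igκ-*BCL2* (11.2%). The WT values rest on 23 cells. S-phase-like cells held 7100, 8313 and 7169 UMIs per 1000000, a description only, as these genes chose the cells.

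Mitosis genes, a list of 40 such as *Mki67* and *Birc5*, did not follow the replication genes in 3′RR-*BCL2* in the draw reported here. Of 40 measured in GC-like cells, 23 were higher and 17 lower than in WT, and the sum had a log2 ratio of -0.04 (-0.13 to 0.05), with levels of 2373 and 2444 UMIs per 1000000. Lists other than the 40 genes were compared in 1 draw of the thinning. In that draw the S-phase-like share of WT was near the top of its range. Its G2/M-like share was 13.0%, below the median of 18.0% over the further draws. Whether the mitosis sums hold in other draws was not tested. In Igκ-*BCL2*, 24 of 28 mitosis genes were lower, with a sum of -0.72 (-0.82 to -0.62). The other replication genes moved less than the 40, with sums of -0.29 and -0.50, and 28 of 35 and 20 of 27 genes lower. The primase subunit *Prim2* was the lowest of them in both (-1.82 and -2.26). Of 6 dark zone genes, 2 of which the GC-like class used, 4 were higher and 2 lower than in WT in each model, with sums of 0.21 (0.10 to 0.33) and 0.58 (0.46 to 0.70). Light zone sums had ratios of -0.01 and -0.10. Neither sum set GC-like cells apart from resting-like cells. GC-like over resting-like, the dark zone sum had log2 ratios of -0.25, -0.07 and 0.10, and the light zone sum 0.02, -0.07 and 0.02. Both sums are therefore values of these lists and not a measure of zone.

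Genes that the S phase call did not use were compared between S-phase-like cells and GC-like cells in neither phase. Other replication genes were at least 2-fold higher in S-phase-like cells for 8 of 13, 23 of 31 and 10 of 20 measured genes, where 7.42%, 6.93% and 7.71% of all genes were. *Clspn*, a fork checkpoint gene, was at 131, 185 and 227 UMIs per 1000000 in S-phase-like cells against 27.4, 20.5 and 34.1 in cells in neither phase. Histone genes, 67 genes taken by symbol after their values were seen, summed to 1125, 2147 and 2097 UMIs per 1000000 in S-phase-like cells, 525, 285 and 387 in cells in neither phase, and 6103, 3169 and 4622 in G2/M-like cells. Light zone genes were lower in S-phase-like cells of 3′RR-*BCL2*, where 10 of 10 were lower and 3 at least 2-fold (9.06% of all), with a sum of -0.89 (-1.03 to -0.75) and with *Egr3* (-2.24) and *Egr1* (-1.48) lowest. The sums were -0.42 in WT, with 2 of 7 genes at least 2-fold lower (5.83% of all). In Igκ-*BCL2* the sum was -0.15 (-0.40 to 0.10), with 4 of 10 genes higher and 6 lower, and 1 past 2-fold each way (7.71% of all higher and 18.8% lower). *Egr1* was among the higher ones (0.60, 0.05 to 1.12). Dark zone sums were also lower (-0.34, -0.51 and -0.61), with *Foxp1* lower in each library (-0.71, -1.11 and -0.91). As given above, neither sum is a measure of zone. S-phase-like cells had medians of 10937.5, 10130.5 and 8804 UMIs, against 8548, 6853 and 7192 for cells in neither phase.

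Outside the GC-like class lay 61 of 85, 44 of 102 and 20 of 36 S-phase-like cells. Resting-like cells, from which the limit of 6 genes was set, gave 24, 9 and 12 of them. Of the 9 in 3′RR-*BCL2*, 4 held 1 GC marker and 3 held 2, and 4 resting-like cells of that library held at least 10 of the 40 genes. In WT, 6 of 195 transitional-like cells were S-phase-like (3.08%, 1.14 to 6.58), with UMIs of *Vpreb3* in 6 and of *Ighd* in 5 of them, and of *Rag1* or *Dntt* in none. *Vpreb3* is itself among the 5 markers of the class, of which 2 were enough. Of the other markers, *Cd93* was found in 1 of these cells, and *Sox4*, *Myb* and *Wfdc21* in 2 each. Cells of no class gave 28, 35 and 7, of which 18, 12 and 3 held no GC marker. Of 31, 33 and 8 unassigned cells in either phase with at most 1 GC marker, *Jchain*, a plasma cell gene, was found in 0, 16 and 2, against 0.416%, 3.32% and 4.02% of resting-like cells. *Ms4a1*, a B cell gene, was found in 20, 30 and 5 of them, against 86.2%, 86.7% and 82.8% of resting-like cells. *Ighd* was found in 14, 8 and 2. By the class rule each of these cells held under 4 of the 13 plasma cell markers, and what they are was not tested.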

How the data were processed

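Each deposited file holds the whole UMI counts of a library, by gene and barcode, made by the authors with Cell Ranger 6.1.1 per the labels (mm10 and hg38 are the builds listed) and not filtered further. There were 11269, 7579 and 7034 barcodes with 62777659, 45539172 and 37433924 UMIs. Following the limits of the study, a cell needed 800 to 4500 detected genes, no more than 20000 UMIs, a mitochondrial share of 8% or less and a ribosomal share of 10% or more, and cells with 2 or more UMIs of *Cd3* or *C1q* genes were removed (9932, 6561 and 6243 cells remained). Cells were thinned at random to 2000 UMIs to find markers and phases, and 178, 165 and 135 shallower cells were left out. Levels are unthinned UMIs summed over a class per 1000000 UMIs of the class. Classes were taken in the order GC (3 of 12 markers), plasma cell (4 of 13), interferon-activated (3 of 10), MYC-high (4 of 10), marginal zone (4 of 10), transitional (2 of 5) and resting follicular (5 of 9). Scrublet marked 0, 2 and 0 doublets, too few to have worked, so cells were kept and the highest 5% of its scores left out as an alternative.

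No test was made, as each genotype had 1 library. Intervals are Poisson for levels, Clopper-Pearson for shares and those of a pair of Poisson counts for ratios. The intervals were checked on counts simulated under the same Poisson model. Phase calls were checked on cells drawn from pooled profiles of resting-like cells and of cells already called S-phase-like. Such checks cover the computation and cannot show the spread between cells or mice. Genes were named by role: the member with the highest level of its role, the 5 highest and 5 lowest ratios between libraries with at least 20 UMIs, and the 3 highest and lowest of other lists, with the remaining members given by range. The 40 genes and all lists were chosen with earlier results of these data known. Python 3.11.15, numpy 2.4.6, scipy 1.17.1, pandas 2.3.3, scanpy 1.11.5 and matplotlib 3.10.9 were used.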

Additional observations from a re-analysis of the deposited data

How the results depend on the processing

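No paired analysis was possible because there was 1 library per genotype and all labels carry the same replicate number. There were no replicates, and the WT values rest on 54 GC-like cells. No summed ratio changed direction under the alternatives. The S-phase-like share of GC-like cells was highest in WT and lowest in Igκ-*BCL2* under each of 12 alternatives, although at 1000 UMIs the WT interval (4.54 to 36.1) covered the other shares. As a share of all cells, 3′RR-*BCL2* was highest in each, and Igκ-*BCL2* was above WT in 3. The share of GC-like cells moved to 23.4% in WT and 9.41% in 3′RR-*BCL2* with 1 GC marker fewer, to 16.0% in WT at 1000 UMIs, and to 16.4% in 3′RR-*BCL2* with phases from scores. The log2 ratio of the summed level, GC-like over resting-like (WT, 3′RR-*BCL2*, Igκ-*BCL2*), moved to 2.73, 2.03 and 1.36 without upper limits, 2.64, 2.01 and 1.34 with a looser cell filter, 2.14, 1.44 and 0.77 with 1 marker fewer, 2.38, 1.65 and 1.08 with 1 more, 2.14, 1.82 and 0.84 at 1000 UMIs and 2.35, 1.55 and 0.90 at 4000 UMIs. It was 1.67 in 3′RR-*BCL2* without the highest doublet scores, and 2.41 in WT and 1.68 in 3′RR-*BCL2* as the median of 20 other draws, an alternative chosen after seeing the data. Genes at least 2-fold higher in Igκ-*BCL2* GC-like cells were 14 with 1 marker fewer and 13 at 1000 UMIs. Between libraries (3′RR-*BCL2* over WT, Igκ-*BCL2* over WT, Igκ-*BCL2* over 3′RR-*BCL2*), the ratio moved to -0.60, -1.23 and -0.64 without upper limits, -0.52, -1.16 and -0.64 with the looser filter and -0.28, -1.15 and -0.87 at 1000 UMIs. The first and second moved to -0.64 and -1.23 with 1 marker fewer, -0.64 and -1.14 with 1 more and -0.68 and -1.20 as the median of draws, and the first to -0.73 at 4000 UMIs. Genes at least 2-fold lower in 3′RR-*BCL2* than in WT, 18 as reported, were 1 without upper limits, 1 with the looser filter, 8 with 1 marker fewer, 12 with 1 more, 2 at 1000 UMIs and 14 at 4000 UMIs. The causes were not tested.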
